A study of Mus musculus with 6 samples.

Results

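Immunoglobulin kappa and heavy chain transcripts were followed in red pulp macrophages, the macrophages of the spleen that clear aged red blood cells. The set holds 191 of the 37854 accessions on the array and 201 of its 55681 probes, those whose Ensembl transcript accession lies between ENSMUST00000103301 and ENSMUST00000103558. Of these, 92 probes (87 accessions, up to ENSMUST00000103410) belong to the kappa chain and 109 probes (104 accessions) to the heavy chain. Every probe was kept, and 10 accessions carried 2 probes. The files give accessions and no segment names, so segments are called by accession, and constant and variable segments could not be told apart by name. Because the set was picked with the comparison of genotypes in view, differences between genotypes in its members are described without a test.

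Flow cytometry was used to sort these cells from spleens of 3 wild-type and 3 Bach2 knock out mice, all C57BL/6 and aged 8 to 9 weeks, and each sample was hybridised to 1 single-colour array. The sources used here do not say how Bach2 was deleted, in which cells, or which markers set the sort gate. All mice were male except wild-type replicate 3, which was female. Wild-type arrays lay in row 1 and knockout arrays in row 2 of 1 slide, so array row and genotype cannot be told apart, while array columns 1, 2 and 3 each carried a mouse of both genotypes. Levels are log2 values relative to the array's 75th percentile of signal, so a level of 0 is the signal of a probe at that percentile, and differences are knockout minus wild type on the log2 scale.

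An antibody is built from 2 heavy and 2 light chains, and in the mouse most light chains are kappa. Each B cell assembles the variable part of its own chain genes from segments. A variable segment is thus transcribed at a high level only by the cells that chose it. Constant segments are shared by all cells of a class. The heavy chain constant segment sets the antibody class, and activated B cells can exchange it by class switching. Bach2 is best known in B cells, where it represses Prdm1, the gene of the plasma cell factor Blimp-1, and is needed for class switching. Plasma cells and plasmablasts of the red pulp fill much of their messenger RNA with immunoglobulin transcripts. In sorted cells measured in bulk, fewer cells of a type and less RNA per cell cannot be told apart.

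The sort and the arrays were checked first. Of 8 red pulp macrophage markers, 7 were found on the array, and Spic, Vcam1, Adgre1, Hmox1, Slc40a1 and Csf1r were well above background on all 6 arrays with levels of at least 5.35, whereas Cd163 was well above background on 4. The mean level of these 7 markers on an array was 5.61 to 6.79 in wild type and 5.31 to 5.52 in knockout. Jchain and Cd79b, genes of plasma cells and B cells, averaged 6.66 and 6.45 in wild type. The markers thus do not show how pure the sort was. The share of spots well above background ranged from 37.5% to 51.5% over the arrays. The 75th percentile of signal, to which levels are scaled, was lowest for wild-type replicate 3 (865.2) and highest for knockout replicate 3 (3172.1). The Bach2 probe stood at -1.09, -0.21 and -1.53 in wild type and -2.42, -3.90 and -1.41 in knockout, so knockout replicate 3 overlapped wild type, and where the probe lies relative to the deletion is not stated.

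Immunoglobulin transcripts were readily detected in the sorted cells of both genotypes. Among kappa probes, 66 of 92 (71.7%) were well above background on all 6 arrays, 1 was on none and 7 on fewer than 3. Among heavy probes the counts were 56 of 109 (51.4%), 16 and 36. Over all probes on the array 31.2% were well above background on all 6 arrays. The median level was 0.99 for kappa and -0.99 for heavy probes.

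The probes of ENSMUST00000103410 and ENSMUST00000103412 were the brightest of their chains. The kappa probe ENSMUST00000103410 read 7.64, 7.92 and 8.84 in wild type and 7.83, 8.30 and 6.82 in knockout. Of the pair of heavy probes for ENSMUST00000103412, A_55_P1960148 read 8.21, 7.80 and 9.09 in wild type and 8.15, 8.51 and 6.78 in knockout. The genotypes overlapped for both. These probes sat near the upper end of the scanner signal, where their unscaled intensity varied little: ENSMUST00000103410 lay between 346026 and 410202 and A_55_P1960148 between 348770 and 512957, while the highest spot of an array stood between 542523 and 632300. Their scaled differences were -0.48 and -0.55, and the part of a ceiling of the signal was not tested. The companion probe of ENSMUST00000103412 (A_51_P509679) gave -0.58. With quantile normalization of the arrays in place of this scaling, ENSMUST00000103410 gave 0.070, A_55_P1960148 0.035 and A_51_P509679 -0.014. Quantile normalization gives probes of equal rank the same value on each array, so for the brightest probes values near 0 are built in. With array median centring these probes gave, in the same order, -0.36, -0.42 and -0.45. With the percentile taken over detected probes they gave -0.38, -0.45 and -0.48. The part of the scaling in these differences was not tested.

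**Figure D1:**
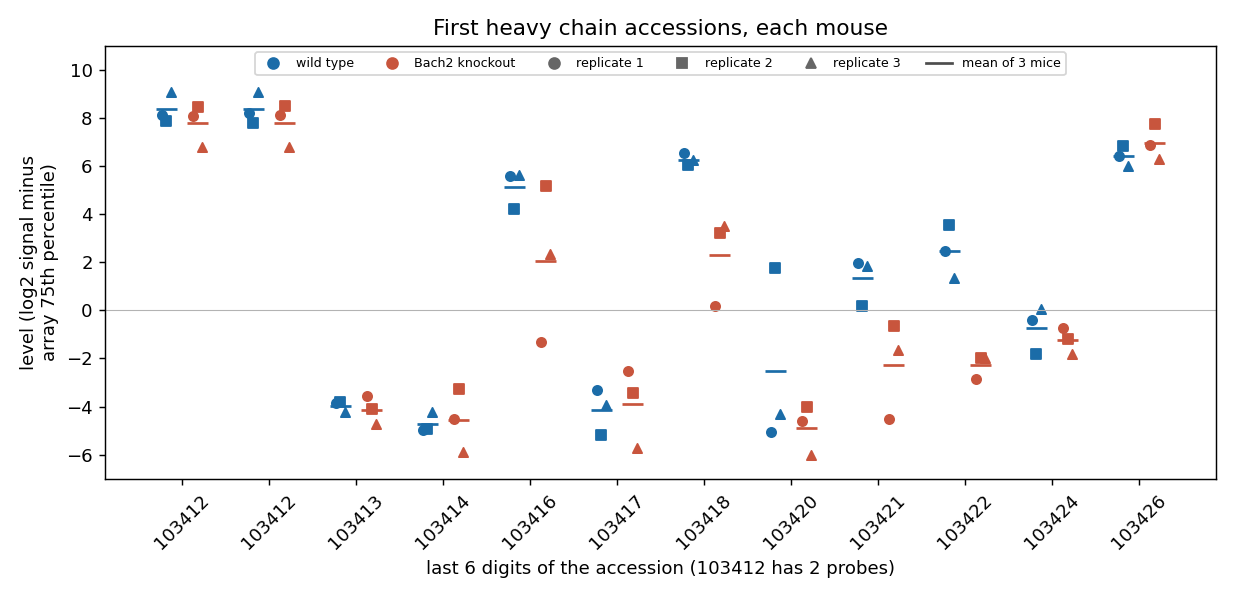
Level of the first heavy chain accessions on each array (vertical axis, log2, relative to the array's 75th percentile; horizontal axis, the last digits of the accession), wild type in blue and knockout in red, with 1 symbol per mouse and a bar at the mean of 3 mice. For ENSMUST00000103418, ENSMUST00000103421 and ENSMUST00000103422 all 3 knockout mice lie below all 3 wild-type mice, while ENSMUST00000103412 and ENSMUST00000103426 overlap.

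The heavy chain accessions fall into 2 runs of numbers, 11 accessions (12 probes) from ENSMUST00000103412 to ENSMUST00000103426 and 93 accessions (97 probes) from ENSMUST00000103442 onward. The first run held the 4 largest mean differences between genotypes among members well above background on at least 3 arrays. Within it, 4 accessions stood at least 8-fold lower in knockout on average, while the abundant ENSMUST00000103412 and ENSMUST00000103426 did not share that difference.

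ENSMUST00000103422 read 2.45, 3.57 and 1.34 in wild type and -2.84, -1.97 and -1.97 in knockout. All wild-type arrays and 2 of 3 knockout arrays measured it well above background, and every knockout mouse lay at least 3 log2 units under the lowest wild-type mouse. The means were 2.45 ± 1.12 (SD, n = 3) and -2.26 ± 0.50 (SD, n = 3), a log2 difference of -4.71 ± 0.63 (SE), or 26.2-fold higher in wild type. By array column the difference was -5.29, -5.54 and -3.31.

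ENSMUST00000103418 was abundant in wild type, at 6.54, 6.03 and 6.24, and read 0.19, 3.23 and 3.51 in knockout. The wild-type mice were close together and the knockout mice spread widely, with replicate 1 lowest. Its probe was well above background on all 6 arrays, and the means of 6.27 ± 0.26 and 2.31 ± 1.84 (SD, n = 3 each) differed by -3.96 ± 0.85 (SE), 15.5-fold higher in wild type. The columns gave -6.35, -2.80 and -2.73, and without knockout replicate 1 the difference was -2.90.

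ENSMUST00000103421 read 1.96, 0.17 and 1.85 in wild type and -4.53, -0.63 and -1.67 in knockout. Again the genotypes did not overlap, but wild-type replicate 2 and knockout replicate 2 lay only 0.80 apart within array column 2. The mean difference was -3.60 ± 0.99 (SE), and it was -2.48 without knockout replicate 1. In knockout 2 of 3 arrays measured it well above background.

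ENSMUST00000103416 read 5.58, 4.23 and 5.62 in wild type and -1.30, 5.15 and 2.33 in knockout. Here the genotypes overlapped, since knockout replicate 2 lay above wild-type replicate 2. The mean difference of -3.08 ± 1.40 (SE) rested largely on knockout replicate 1, without which it was -1.40.

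Other accessions of the first run did not follow this pattern. ENSMUST00000103426 read 6.41, 6.82 and 6.02 in wild type and 6.86, 7.76 and 6.28 in knockout, a difference of 0.55 ± 0.53 (SE) with overlapping genotypes. ENSMUST00000103424 read -0.41, -1.82 and 0.05 against -0.74, -1.18 and -1.83, likewise with overlap. ENSMUST00000103420 was well above background only on the array of wild-type replicate 2, at 1.77, and read between -6.03 and -4.03 on the other 5. ENSMUST00000103414 and ENSMUST00000103417 were not well above background on any array, and ENSMUST00000103413 on 1. Over the 12 probes of the run, 9 lay below 0 and 3 above, with a median of -0.56.

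**Figure D2:**
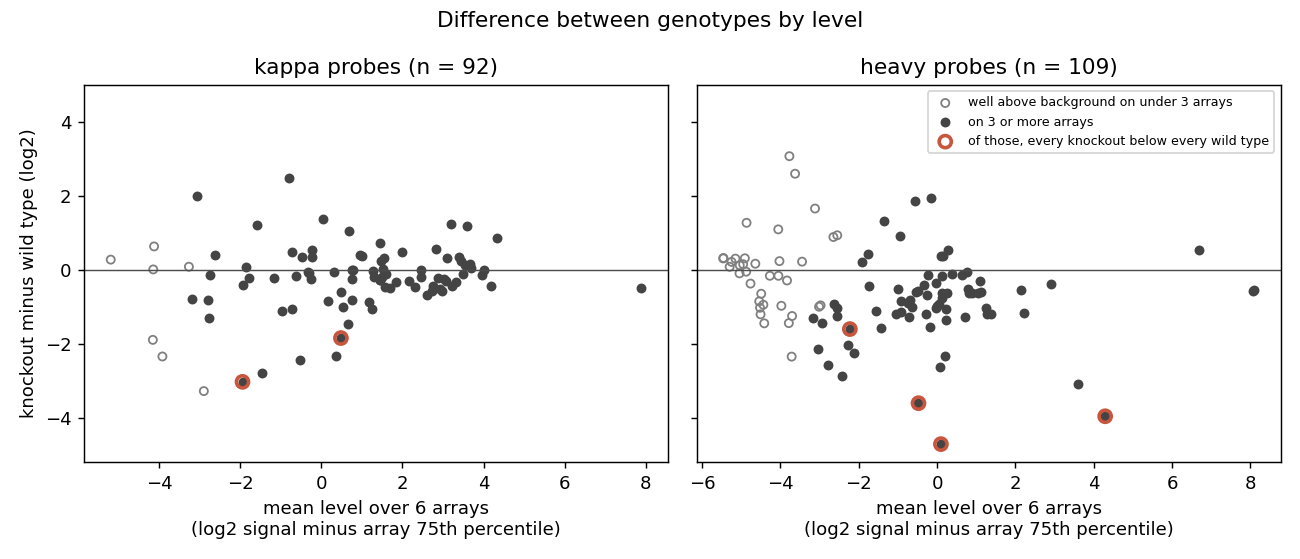
Difference between genotypes (vertical axis, knockout minus wild type, log2) against the mean level over 6 arrays (horizontal axis, log2, relative to the array's 75th percentile) for the 92 kappa and 109 heavy probes, 1 point per probe. Open grey points were well above background on fewer than 3 arrays, and red rings mark the 6 tested probes with every knockout mouse below every wild-type mouse, the lowest of them ENSMUST00000103422 at -4.71.

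Read against the whole array, these members lay at its lower edge. Of 23032 probes that were well above background on at least 3 arrays, 7 stood at or below a log2 difference of -3, and 5 of the 7 were immunoglobulin members: ENSMUST00000103422, ENSMUST00000103418, ENSMUST00000103421, ENSMUST00000103416 and the kappa accession ENSMUST00000103308. ENSMUST00000103422 ranked 1 from the low end. Limma called 0 of the 23032 probes at an adjusted p under 0.05, a background of 0%, with 161 higher and 148 lower at an unadjusted p under 0.05, so no member was called either. Every knockout mouse lay below every wild-type mouse for 6 of the 158 members that passed the filter, against a background of 2.07% of tested probes. In the opposite direction the count was 0 of 158, against 1.23%. As the set was chosen on this contrast, nothing is read from these shares.

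The authors' deposited table of 279 probes holds 3 members, ENSMUST00000103422, ENSMUST00000103418 and ENSMUST00000103308. For 211 of its 278 non-control probes every knockout mouse lay below every wild-type mouse, against 2.07% of tested probes. Its probes were thus far from a neutral sample for this contrast, so nothing is read from the presence of these members. In the authors' deposited table, each probe is centred on its own median across arrays, and ENSMUST00000103418 stands there at 1.72, 1.26 and 1.41 in wild type and -4.64, -1.60 and -1.26 in knockout. For all 3 members the values of the authors' deposited table lay within 0.064 of the scanner values centred in the same way. Both sets of values come from the same arrays, so their closeness bears on the processing only.

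The later heavy chain accessions, 97 probes from ENSMUST00000103442 to ENSMUST00000103558, differed more between mice than between genotypes. Their median level was -0.31, -2.68 and 0.47 in wild type and -1.20, -0.17 and -3.07 in knockout, so wild-type replicate 2 and knockout replicate 3 were low and the genotypes overlapped. Of the 97 probes 72 lay below 0 and 25 above, with a median of -0.63. Every knockout mouse lay below every wild-type mouse for 1 of the 97. Over all probes of the array this held for 1052 of 55547, so nothing is read from the count. The 1 probe, of ENSMUST00000103462, was dim, at -1.93, -1.03 and -1.32 in wild type and -2.87, -2.66 and -3.55 in knockout. Of its knockout arrays, 1 of 3 was well above background.

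The 3 brightest later accessions show how the mice differed. ENSMUST00000103469 read 4.20, 0.69 and 4.39 in wild type and 2.84, 4.15 and 1.13 in knockout. ENSMUST00000103496 read 3.15, -0.01 and 4.11 against 1.99, 3.18 and 0.42. ENSMUST00000103522 read 2.95, 1.60 and 3.82 against 1.69, 2.66 and 0.53. In each of them wild-type replicate 3 was highest, knockout replicate 2 stood among the high mice, and wild-type replicate 2 and knockout replicate 3 were the lowest pair.

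At the other end, the heavy probes with the highest differences among those well above background on at least 3 arrays were ENSMUST00000103502, ENSMUST00000103508, ENSMUST00000103500 and ENSMUST00000103467, at 1.95, 1.86, 1.32 and 0.92. ENSMUST00000103502 read -1.39, -3.29 and 1.32 in wild type and 0.99, 2.36 and -0.87 in knockout. ENSMUST00000103508 read -1.89, -3.41 and 0.80 against 0.59, 1.86 and -1.37. Without wild-type replicate 2 the differences of these 4 were 0.87, 0.90, 0.98 and -1.22, and without knockout replicate 2 they were 1.19, 1.11, 0.13 and 0.036. All 4 overlapped between genotypes, and the order of the 6 mice was the same in ENSMUST00000103502 and ENSMUST00000103508.

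Kappa chain probes as a group showed a smaller difference than heavy chain probes. Of the 92 kappa probes 57 lay below 0 and 35 above, with a median of -0.20, and of the 109 heavy probes 81 lay below 0 and 28 above, with a median of -0.62. The median over all probes of the array was 0.09, and over the 23032 tested probes it was -0.12. The share of probes below 0 was 62.0% for kappa and 74.3% for heavy probes, against 43.8% of all probes. Among tested probes it was 63.5% for kappa, 86.3% for heavy and 61.5% for all, so the kappa share lay near that of the array. Differences of 2-fold or more were mostly lower in knockout for heavy probes, 37 lower and 8 higher, and less one-sided for kappa probes, 13 lower and 7 higher. Over all probes 4.02% lay 2-fold or more lower and 5.12% higher.

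These medians depended on single mice. Within array columns 1, 2 and 3 the median difference was 0.25, 1.04 and -1.87 for kappa and -0.60, 1.79 and -2.85 for heavy probes, so column 2 ran against column 3. All probes of the array, dim ones included, gave 0.35, 0.86 and -1.15, with the same order of columns. Among probes that passed the filter the columns gave 0.25, 0.99 and -1.87 for kappa and -1.19, 1.79 and -3.08 for heavy probes, against -0.13, -0.10 and -0.03 for all that passed. Without wild-type replicate 3 the kappa median was 0.39 and 28 of 92 probes lay below 0, and the heavy median was -0.13 with 57 of 109. Without knockout replicate 3 the medians were -0.01 and -0.06, with 47 and 57 probes below 0. With both of these mice left out, whose labels share the tag P6, the medians were 0.61 and 0.52, and 24 kappa and 31 heavy probes lay below 0. Leaving out wild-type replicate 2 instead gave -0.68 and -1.24, and leaving out knockout replicate 2 gave -0.28 and -1.18. The group medians thus moved by more than their size with the choice of mice. The difference stayed at -4.15 or lower for ENSMUST00000103422, at -2.90 or lower for ENSMUST00000103418 and at -2.48 or lower for ENSMUST00000103421 in every alternative run, each mouse left out included.

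**Figure D3:**
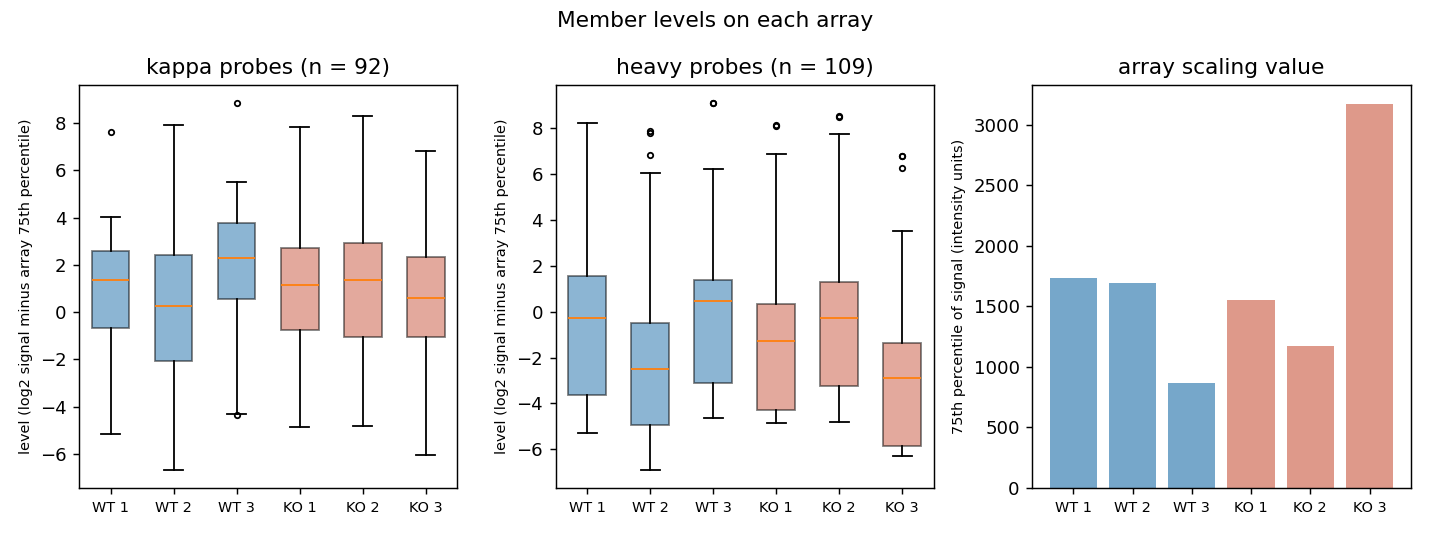
Levels of all 92 kappa and all 109 heavy probes on each array (left and middle; box, median and quartiles; whiskers, 1.5 times the quartile range; points, probes beyond) and the 75th percentile of signal used for scaling (right, intensity units), wild type in blue and knockout in red. Wild-type replicate 3 has the highest medians, 2.31 and 0.49, and the lowest percentile, while knockout replicate 3 has a heavy median of -2.88 and the highest percentile.

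The spread between mice was wide for immunoglobulin probes. The SD between mice of a genotype had a median of 1.22 over kappa and 1.56 over heavy probes, against 0.65 over all tested probes and 0.97 over all probes. Among the 66 kappa probes well above background on every array, wild-type replicate 3 was the highest mouse for 46 (69.7%), and wild-type replicate 2 the lowest for 35 (53.0%). Among the 56 such heavy probes, wild-type replicate 3 was highest for 32 (57.1%), knockout replicate 3 lowest for 33 (58.9%) and wild-type replicate 2 lowest for 20 (35.7%). Over all 17340 probes well above background on every array, wild-type replicate 3 was highest for 14.1%, wild-type replicate 2 lowest for 13.8% and knockout replicate 3 lowest for 27.2%. The 75th percentile of signal was lowest on wild-type replicate 3 (865.2), the mouse most often highest for both chains. It was highest on knockout replicate 3 (3172.1), the mouse most often lowest for heavy probes. For kappa probes knockout replicate 3 was lowest for only 10 (15.2%). Wild-type replicate 2, most often lowest there, had a percentile of 1693.3. The part of the percentile in the order was not tested.

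After ENSMUST00000103410, the brightest kappa accessions all overlapped between genotypes. ENSMUST00000103320 read 3.62, 3.39 and 4.69 in wild type and 4.77, 5.52 and 3.98 in knockout, a difference of 0.86 ± 0.58 (SE) with overlap. ENSMUST00000103345 read 3.56, 3.08 and 5.42 against 4.28, 4.51 and 3.27, a difference of 0.00 ± 0.69 (SE). The neighbouring accessions ENSMUST00000103347, ENSMUST00000103351 and ENSMUST00000103352 gave -0.14, 0.16 and 0.04, and in each of these 3 wild-type replicate 3 was highest and wild-type replicate 2 lowest.

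Single mice stood out for a few accessions. Both probes of ENSMUST00000103324 were far higher in knockout replicate 2 than elsewhere: A_55_P2132532 read 7.02 there and between 1.65 and 3.97 on the other 5 arrays, and A_55_P2132533 read 6.91 there and between 1.17 and 3.70 elsewhere. ENSMUST00000103331 read 6.55 in wild-type replicate 2 and between 3.00 and 4.57 in the other mice. The mean differences of these accessions, 1.18 and 1.24 for the probes of the former and -0.43 for the latter, thus reflect 1 mouse each. Without knockout replicate 2 the probes of ENSMUST00000103324 differed by -0.25 and -0.31, and without wild-type replicate 2 ENSMUST00000103331 differed by 0.65. Probes well above background on at least 1 array were also counted. For 8 of 91 such kappa probes (8.79%) and 12 of 93 heavy probes (12.9%), the highest array lay at least 2 log2 units above the next. That highest array was itself well above background. The share over all such probes on the array was 7.97%, so the kappa share lay near it and the heavy share above it, with no test. Most of the 12 heavy probes were well above background on only 1 or 2 arrays, so their gaps were measured against background signal.

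**Figure D4:**
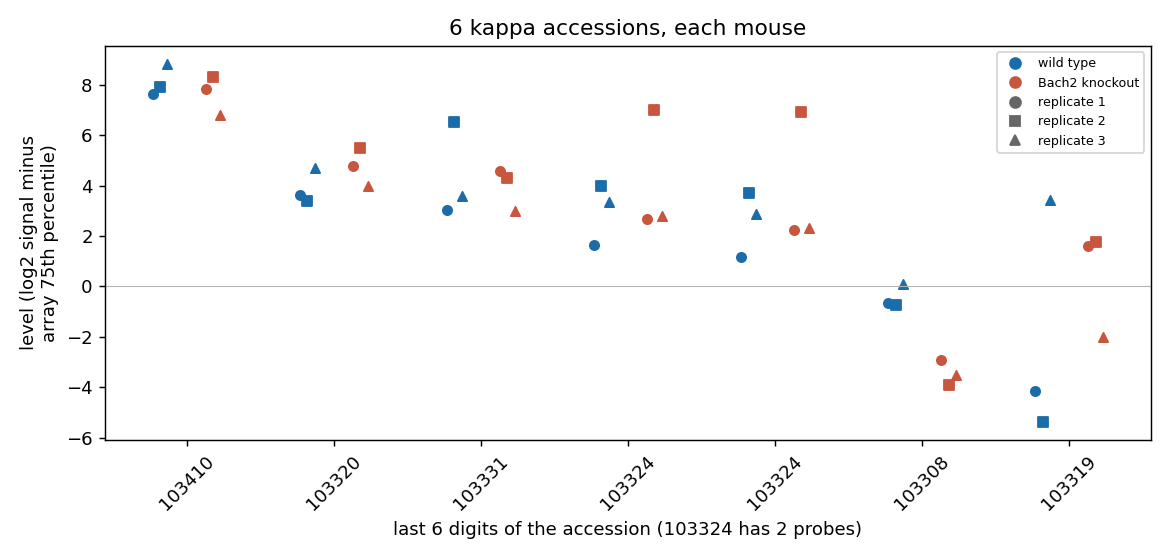
Level of 6 kappa accessions on each array (vertical axis, log2, relative to the array's 75th percentile; horizontal axis, the last digits of the accession), wild type in blue and knockout in red, 1 symbol per mouse. Knockout replicate 2 stands alone at 7.02 and 6.91 on both probes of ENSMUST00000103324, and ENSMUST00000103308 separates the genotypes at low levels.

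Among kappa probes with the lowest differences, ENSMUST00000103308 read -0.64, -0.73 and 0.09 in wild type and -2.93, -3.91 and -3.53 in knockout. The genotypes were well apart, with a difference of -3.03 ± 0.48 (SE), but only 1 of 3 knockout arrays was well above background, and the difference was -1.93 with a model-based background correction (normexp). ENSMUST00000103312, at 1.54, 0.33 and 2.34 in wild type and -0.27, -0.02 and -1.03 in knockout, also did not overlap and was well above background on all 6 arrays. It was not among the probes that the naming rule gives and is named because it completes the 2 tested kappa probes without overlap. These were 2 of 85 tested kappa probes, against 2.07% of all tested probes, so nothing is read from their number. ENSMUST00000103392, ENSMUST00000103307 and ENSMUST00000103335 differed by -2.78, -2.43 and -2.33, and in each of them knockout replicate 3 lay above at least 1 wild-type mouse. ENSMUST00000103335 gave -0.75 without knockout replicate 1, and ENSMUST00000103307 gave -1.29 without knockout replicate 2, -4.16 without knockout replicate 3 and -1.39 with normexp. ENSMUST00000103392 lay between -3.72 and -2.003 with each mouse left out in turn. Outside the filter, no knockout array measured ENSMUST00000103325 well above background, and wild type, where 2 of 3 arrays did, stood at least 3.38-fold higher. Its bound is set against the lowest signal well above background on each knockout array.

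The highest kappa differences belonged to ENSMUST00000103319, ENSMUST00000103339 and ENSMUST00000103333, at 2.49, 1.99 and 1.36, beside a probe of ENSMUST00000103324. ENSMUST00000103319 read -4.14, -5.37 and 3.42 in wild type and 1.62, 1.76 and -1.99 in knockout. Wild-type replicate 3 was thus the highest of all 6 mice although the mean was higher in knockout, and 1 of 3 wild-type arrays was well above background. With each mouse left out in turn its difference ran from 0.82 (without wild-type replicate 2) to 5.22 (without wild-type replicate 3). Without wild-type replicate 2 ENSMUST00000103339 gave 1.12 and ENSMUST00000103333 gave -0.16.

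Accessions with 2 probes show how far a value depends on the probe. In 7 of 10 both probes gave the same sign, and their differences lay within 0.27 of each other. ENSMUST00000103328 and ENSMUST00000103401 gave opposite signs close to 0. ENSMUST00000103459 gave -1.20 for A_51_P275642 and 1.66 for A_55_P1997648, of which the latter was well above background on 1 array only. Variable segments of a family are close in sequence, and the files do not show how far a probe also binds transcripts of its relatives. At the ends of the range of accessions, ENSMUST00000103301 just inside gave -0.46, and ENSMUST00000103300 just outside read 0.18 with no array well above background. At the upper end the probes of ENSMUST00000103558 gave -1.24 and -0.97, and ENSMUST00000103559 just outside gave -1.40 with 1 array well above background.

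Genes of the cells that make immunoglobulin did not pass the test. Of 24 tested genes of plasma cells and antibody secretion, 13 lay above 0 and 11 below with a median of 0.05, and limma called 0 in either direction. Jchain, the chain that joins IgM and IgA into polymers, read 6.58, 6.80 and 6.59 in wild type and 6.74, 6.45 and 6.03 in knockout, a difference of -0.25 ± 0.43 (SE). Mzb1, an endoplasmic reticulum chaperone that helps antibody secretion, gave 0.31 ± 0.56 and Xbp1, a factor of the secretory programme, -0.07 ± 0.47 (SE). Prdm1, the Bach2 target named above, stood at 1.65 ± 0.51 in wild type and 1.77 ± 0.62 in knockout (SD, n = 3 each). Sdc1 (syndecan 1, a plasma cell surface marker) gave 0.64 ± 0.57 and Tnfrsf17 (BCMA, a survival receptor of plasma cells) 0.83 ± 0.87 (SE), both highest in knockout replicate 2. The smallest p of the list belonged to Cd28, a costimulatory receptor also of T cells, at 1.23 ± 0.56, and to Pou2af1, a coactivator of immunoglobulin genes, at 0.67 ± 0.54 (SE). For all these genes the limma adjusted p was 0.99994.

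Of 22 tested B cell genes, 11 lay above 0 and 11 below with a median of 0.0075, and limma called 0. Ms4a1 (CD20) gave 0.55 ± 0.64 and Cd79b, a signalling chain of the B cell receptor, 0.09 ± 0.47 (SE). Cd79a, its partner, gave 0.03 ± 1.14 on a dim probe, and Pax5, which holds B cell identity, was well above background on 3 of 6 arrays and gave 0.02 ± 1.11 (SE). Cr2, the complement receptor of marginal zone and follicular B cells, had the smallest p of the list, at 2.49 ± 0.65 in wild type and 1.23 ± 0.42 in knockout (SD, n = 3 each). Its mice did not overlap and its difference was -1.26 ± 0.51 (SE), followed by Ralgps2 at 0.55 ± 0.47 (SE). The limma adjusted p was 0.99994 for each of these genes.

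**Figure D5:**
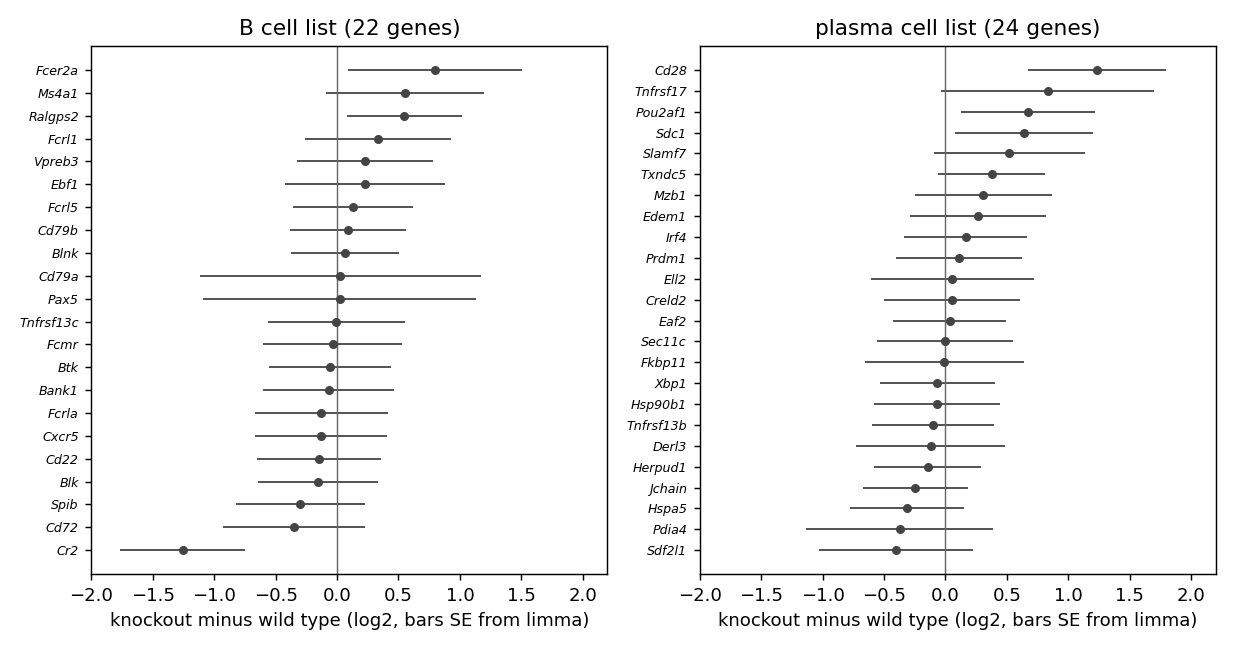
Difference between genotypes (horizontal axis, knockout minus wild type, log2; points, the estimate; bars, SE from limma) for 22 B cell genes (left) and 24 plasma cell genes (right). No gene passed the test, with Cr2 at -1.26 and Cd28 at 1.23 farthest from 0.

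The mean level of the plasma cell list on an array ranged from 2.56 to 3.05 in wild type and 2.66 to 3.41 in knockout, and that of the B cell list from 0.88 to 2.24 and 1.38 to 1.999, so both overlapped. Of the mice that were low for later heavy accessions, wild-type replicate 2 stood at 1.85 and knockout replicate 3 at 1.999 for the B cell list, above wild-type replicate 1 at 0.88. For the plasma cell list wild-type replicate 2 stood at 3.05 and knockout replicate 3 at 2.72, where wild-type replicate 1 was lowest at 2.56, although knockout replicate 3 was the lowest mouse for Jchain (6.03), Mzb1 (4.83) and Tnfrsf17 (1.04). Markers of other cells lay to one side of 0. All 6 NK cell genes lay above 0 with mean levels of 0.17 to 1.01 in wild type and 1.69 to 2.92 in knockout, and all 6 T cell genes lay above 0 with 1.03 to 1.93 and 1.75 to 3.13. The 5 neutrophil genes ranged from 1.64 to 3.59 and from 2.96 to 4.86, and all 7 red pulp macrophage genes lay below 0 with 5.61 to 6.79 and 5.31 to 5.52. All 4 erythroid genes lay above 0, with 2.73 to 6.29 and 3.01 to 6.08. The array means of the genotypes did not overlap for the NK cell and macrophage lists. For the T cell, neutrophil and erythroid lists they overlapped. Of the NK, T cell and macrophage genes limma called 0, and the part of these markers in the immunoglobulin differences was not tested.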

How the data were processed

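RNA of 6 mice was hybridised to 6 single-colour arrays, 3 for each genotype, with replicates numbered in the order of the records. The authors' deposited scanner files hold spot intensity values from Agilent Feature Extraction, given as version 9.1 in the submitters' processing notes and as 10.7.3.1 per the file headers. The authors' deposited series table holds log2 values of 279 probes.

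From the 59305 non-control spots, outlier-flagged ones were dropped, and log2 processed intensity minus the array's 75th percentile was averaged over spots of a probe. Tested probes (23032) were well above background on at least 3 arrays with no missing value. Limma 3.58.1 in R 4.3.3 compared the genotypes with Benjamini-Hochberg adjustment over all tested probes, at a threshold of 0.05. Each SE of a difference, for members too, comes from this limma fit. It draws on the spread of all tested probes, so it differs from an SE computed from the printed SDs. The fit was tested on simulated data. Where no array of a genotype measured a probe well above background, the fold is a bound against the lowest signal well above background. RefSeq accessions of assembly GRCm38 named 26413 probes. No sequence of a member was used here.

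The named members are, in each chain, the 8 brightest probes and the 4 highest and 4 lowest differences among probes well above background on at least 3 arrays. The named genes are fixed ones and the 2 with the smallest p of each list, and some genes of the lists are not reported here. Members and gene lists were chosen with earlier results of these data known. Alternatives changed the background correction, scaling, filter, array column and mice. With 6 arrays, precision is limited.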

Additional observations from a re-analysis of the deposited data

How the results depend on the processing

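Limma called 0 probes, and 0 genes of the B cell and plasma cell lists, in each of the 14 alternatives run, the fit with array column as a block included. The labels number no replicates, so array column, which holds 1 mouse of each genotype, was the only block used. The normexp correction was run on the median spot signal, a choice made after seeing that the files hold no mean signal. The median over all probes, 0.09, moved between -0.31 and 0.35 when each mouse was left out and was 0.47 without both P6-tagged mice, where the kappa median was 0.61. Array median centring put the median over all probes at 0.22. Relative to that of all probes, the kappa median was -0.29 and the heavy median -0.72. These were -0.11 and -0.49 with normexp, -0.20 and -0.59 with quantile normalization and 0.14 and 0.050 without both P6-tagged mice, and with each mouse left out they ran from -0.52 to 0.16 and from -1.18 to -0.37. Over the other scalings and normexp the heavy median lay between -0.59 and -0.50 and the kappa median between -0.20 and -0.070.

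Signs of small differences in other genes turned. Xbp1 read 0.060 with array median centring, 0.037 with the percentile over detected probes, 0.19 with quantile normalization and 0.012 when both P6-tagged mice were left out, where Prdm1 read -0.37. Jchain read 0.072 with quantile normalization, and with normexp Cd79a read -0.13 and Pax5 -0.084. Leaving out each mouse gave ranges of -0.31 to 0.15 for Xbp1, -0.22 to 0.41 for Prdm1, -1.12 to 1.44 for Cd79a, -0.19 to 0.31 for Cd79b, -1.16 to 0.94 for Pax5, -0.15 to 0.76 for Mzb1 and -0.15 to 1.64 for Tnfrsf17. The cause was not tested. Signal over background limits the dim members. No spot was reported as saturated on any array.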

Other observations

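Of the 7 tested probes at or below a log2 difference of -3, the 2 that are not members were looked at after their values were seen. Dapl1 read -1.28, 0.44 and -1.52 in wild type and -4.83, -4.79 and -6.26 in knockout. The other, with the unnamed accession XR_033948, read 6.47, 5.90 and 6.57 in wild type and 0.22, 5.07 and 3.68 in knockout. Its highest knockout mouse was replicate 2 and its lowest replicate 1, as for ENSMUST00000103416, which read 5.58, 4.23 and 5.62 in wild type and -1.30, 5.15 and 2.33 in knockout.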
